A study of Mus musculus with 12 samples.

Results

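Tumors of P815-IFNG cells were set against tumors of P815-M cells in mice that received no blue light, so that the differences between the engineered lines could be read without the stimulus. All dark libraries of both lines were taken by their labels, which gave 6 of the 12 libraries of the series, 3 of P815-IFNG and 3 of P815-M. P815 is a mouse mastocytoma, a mast cell tumor line of DBA/2 mice, and each tumor had grown under the skin of the back of 1 adult DBA/2 mouse and was taken after 6 days without blue light. Both sexes were used in the study, and the sex of each mouse is not in the labels. P815-IFNG cells carry the light-sensing activator GAVPO with a blasticidin resistance gene and the marker mRuby-Fluc, both driven by the EF-1α promoter, and the cytokine cassette Ifng-Cxcl10-hGluc behind UAS repeats. P815-M cells carry mRuby-Fluc alone. Each line was grown from a single cell, so a difference between the lines can come from the module or from the clone, and these cannot be told apart here. The labels give 1 mouse per library, with 3 mice in each group. Fewer cells of a type and less RNA per cell cannot be told apart in such bulk tumors.

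GAVPO pairs in blue light and then binds UAS repeats, so the cytokine cassette should be silent in the dark. Interferon gamma is a cytokine of T cells and natural killer cells that acts through the receptor chains Ifngr1 and Ifngr2 and the kinases Jak1 and Jak2, and turns on genes such as Irf1, the Gbp and Irgm GTPases, the immunoproteasome and the peptide transporters. Cxcl10 is a chemokine that draws cells bearing Cxcr3.

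The libraries were of 2 kinds. P815-IFNG dark replicate 3 held 42338096 counts, whereas the other 5 dark libraries held 2251196 to 2946792, so that 3 counts stood for 1.02 to 1.33 CPM (counts scaled to a library total of 1000000) in these and for 0.0709 CPM in the deep library. The gene mt-Nd6, the single mitochondrial protein gene on its strand, took 3.85% of the summed counts of mitochondrial protein genes in the deep library (95% Wilson interval 3.83% to 3.88%, counting error only). In the other 5 it took 29.0% to 36.7%, with 34.4% and 32.2% in P815-IFNG and 29.0%, 36.7% and 31.5% in P815-M. A row named for a gene can hold reads from the strand opposite that gene, so levels and calls below are those of rows. The strand counted in each library was not tested beyond this share. Across genes, log2 CPM correlated at 0.759 to 0.806 between the deep library and the others and at 0.923 to 0.949 among the others, and P815-M had no deep library. The counts of calls and the leading genes are therefore given with and without the deep libraries, and other values are without them unless stated. Of the markers of the labelled mast cell type some were absent. Cpa3, Kit, Gata2, Tph1 and Cma1 stood among the abundant genes, while Fcer1a, the alpha chain of the IgE receptor, was at 0 counts in all 6 libraries and Ms4a2, its beta chain, reached at most 4 counts.

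The activator was present at a high level in all 3 P815-IFNG tumors. GAVPO_bla stood at 429, 537 and 1887 CPM in P815-IFNG replicates 1, 2 and 3 and at 0.771, 0 and 1.56 CPM in P815-M replicates 1, 2 and 3. The groups did not overlap (two-sided exact permutation test, p = 0.1, the smallest that 3 against 3 allow), which checks the labels of the lines. The log2 fold change was 8.94 ± 0.40 (SE) without the deep libraries (adjusted p = 4.76e-09) and 10.03 with all libraries (adjusted p = 0.0474). The marker shared by both lines, mRuby3_luciferase, stood at 50.6, 101 and 242 CPM in P815-IFNG and at 71.7, 57.3 and 71.9 CPM in P815-M. Its groups overlapped, and the log2 fold change was -0.02 ± 0.26 without the deep libraries (adjusted p = 0.979) and 0.78 with them (adjusted p = 0.604).

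The cytokine cassette was detected in the dark at a low level. The row mINFg_mCXCL10_hGulc held 9, 6 and 126 counts in P815-IFNG replicates 1, 2 and 3, that is 3.05, 2.12 and 2.98 CPM, with the deep library at the level of the others. P815-M replicate 1 held 2 counts (0.771 CPM), and replicates 2 and 3 held 0, which allows up to 1.33 and 1.17 CPM. No P815-IFNG library overlapped the P815-M libraries (exact permutation p = 0.1). Over the shallow libraries, 15 counts in P815-IFNG stood against 2 in P815-M, a ratio of 9.61 with a counting interval of 2.23 to 86.6 (95%, exact). The fitted difference did not pass the test across genes, at log2 2.87 ± 1.14 (adjusted p = 0.182) without the deep libraries and 3.13 (adjusted p = 0.604) with all. In the illuminated P815-IFNG tumors the same row held 2.7 to 5.50 CPM. Because this row shares its coding sequence with the mouse genes Ifng and Cxcl10, reads could be split among the 3 rows or left uncounted, and its level is uncertain.

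The mouse genes behind the cassette were near the count floor. Ifng (chr10:118441046-118445892) held 2.04, 1.06 and 0.709 CPM in P815-IFNG and 0.771, 0 and 1.17 CPM in P815-M, from 6, 3 and 30 against 2, 0 and 3 counts. Cxcl10 (chr5:92346638-92348889, opposite Art3) held 6.45, 3.88 and 0.472 CPM in P815-IFNG and 4.24, 0.888 and 3.13 CPM in P815-M. Both genes overlapped between the lines. The log2 fold change without the deep libraries was 0.96 ± 1.09 for Ifng (adjusted p = 0.703) and 0.68 ± 0.82 for Cxcl10 (adjusted p = 0.726), so a difference was not detectable at this depth.

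**Figure D1:**
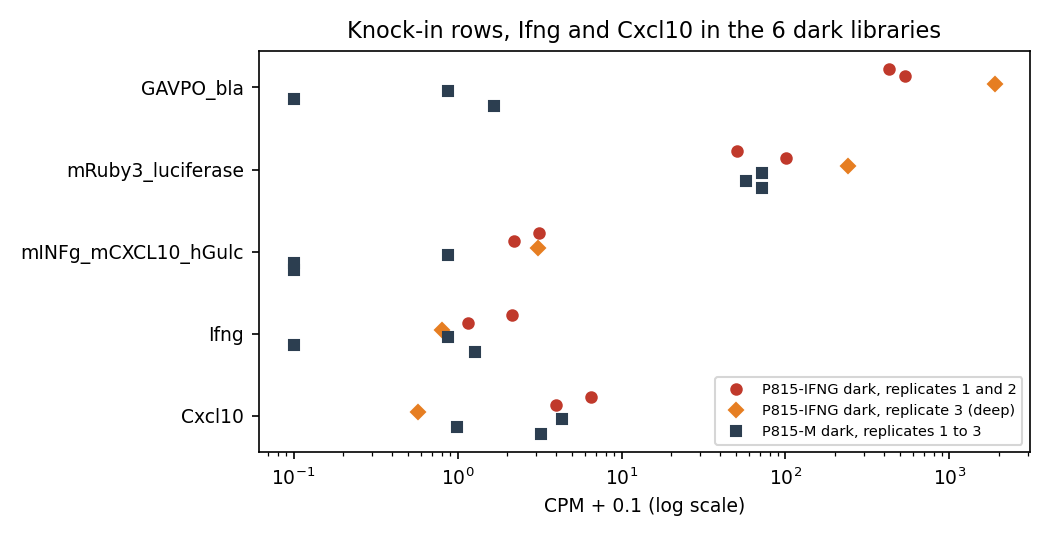
Level of the knock-in rows, Ifng and Cxcl10 in each dark library, as CPM plus 0.1 on a log axis, with 1 point per library. GAVPO_bla separates P815-IFNG (429 to 1887 CPM) from P815-M (0 to 1.56 CPM), while mRuby3_luciferase, Ifng and Cxcl10 overlap and the cytokine cassette lies at 2.12 to 3.05 CPM in P815-IFNG.

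How many genes differed depended on the deep library. With all 12 libraries in the fit, 2 of 18804 tested genes (0.0106%) passed an adjusted p of 0.05 with a log2 fold change of at least 1 in size, namely GAVPO_bla and Pex16, both higher in P815-IFNG, and 1290 had an unadjusted p below 0.05. The count fell to 1 without any 1 of the 5 shallow dark libraries. The median gene lay at 0.33 on the log2 scale in that fit. Without the deep libraries, 371 of 16944 genes (2.19%) passed, 271 higher (1.6%) and 100 lower (0.59%) in P815-IFNG, the median gene lay at 0.05, and 3303 of the 16944 genes had an unadjusted p below 0.05, against which the counts in the lists are to be read. DESeq2 called 38 genes with all libraries and 434 without the deep ones. The 371 calls rested on few tumors: they became 247 without P815-IFNG replicate 1, 145 without replicate 2, 415 without P815-M replicate 1, 150 without replicate 2 and 159 without replicate 3. With all libraries, a fit that shares 5 dark libraries with this one, the sign was the same for all 271 higher calls, for 99 of the 100 lower calls and for 13107 of the 16944 tested genes. The deep library had no part in making the 371 calls. In it, 127 of the 271 higher calls (46.9%) lay above every P815-M library, against 50.1% of all tested genes. Of the 100 lower calls 94 (94.0%) lay below every P815-M library, against 28.0%. Because the deep library is of another kind, kind and line cannot be told apart in these values, and they do not check the calls. Exons opposite another annotated gene were found for 77.0% of the lower calls, 34.7% of the higher calls and 43.9% of the tested genes, and the part of opposite-strand counts in these shares was not tested. Of the lower calls 45 were gene models without a proper name, against 18 of the higher calls.

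**Figure D2:**
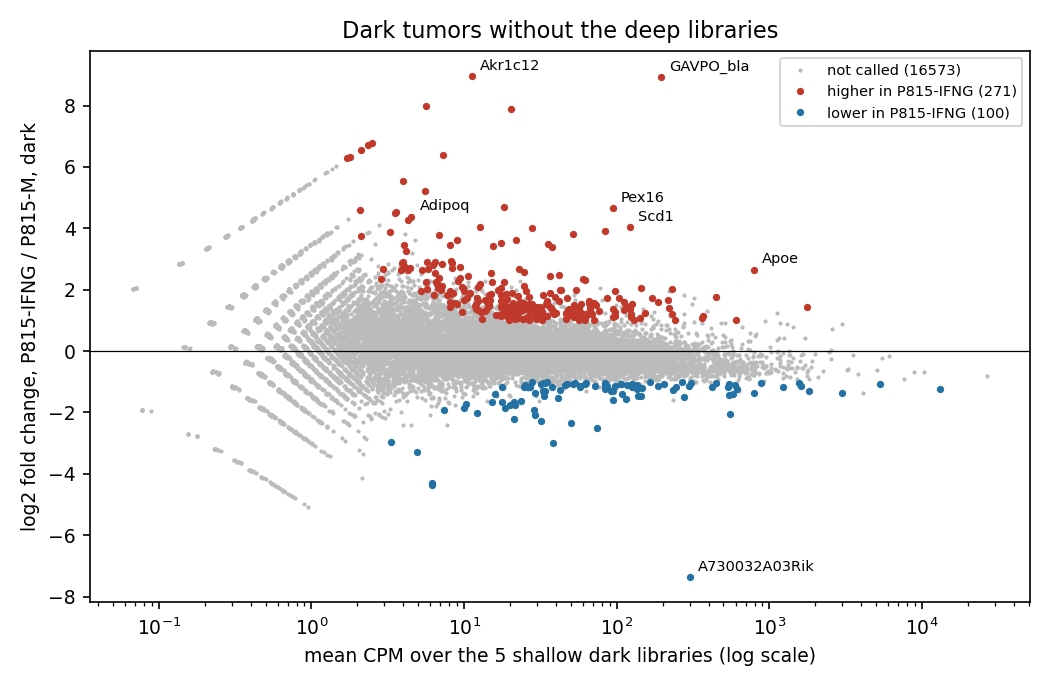
Log2 fold change of P815-IFNG over P815-M in the dark against mean CPM (log axis) for the 16944 genes tested without the deep libraries, 1 point per gene. The 271 higher calls (red) reach 8.97 for Akr1c12 and the 100 lower calls (blue) reach -7.38 for A730032A03Rik, with medians of 1.55 and -1.19.

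The light mice gave a second set of tumors of both lines, with no library in common with the dark ones. In them, 39 genes (0.23%) passed without the deep libraries. Of the 271 genes higher in the dark, 197 (72.7%) also lay above 0 in the light, and of the 100 lower genes 96 (96.0%) lay below 0, where 59.8% of all tested genes had the same direction in both. The median log2 fold change of the higher calls went from 1.55 in the dark to 0.31 in the light, and that of the lower calls from -1.19 to -0.79. In all, 26 genes passed in both conditions with the same direction, 15 higher and 11 lower. The difference between dark and light itself passed for 2 genes (0.0118%), Apoe and Rb1, so for the other genes a weaker difference in the light was not shown.

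**Figure D3:**
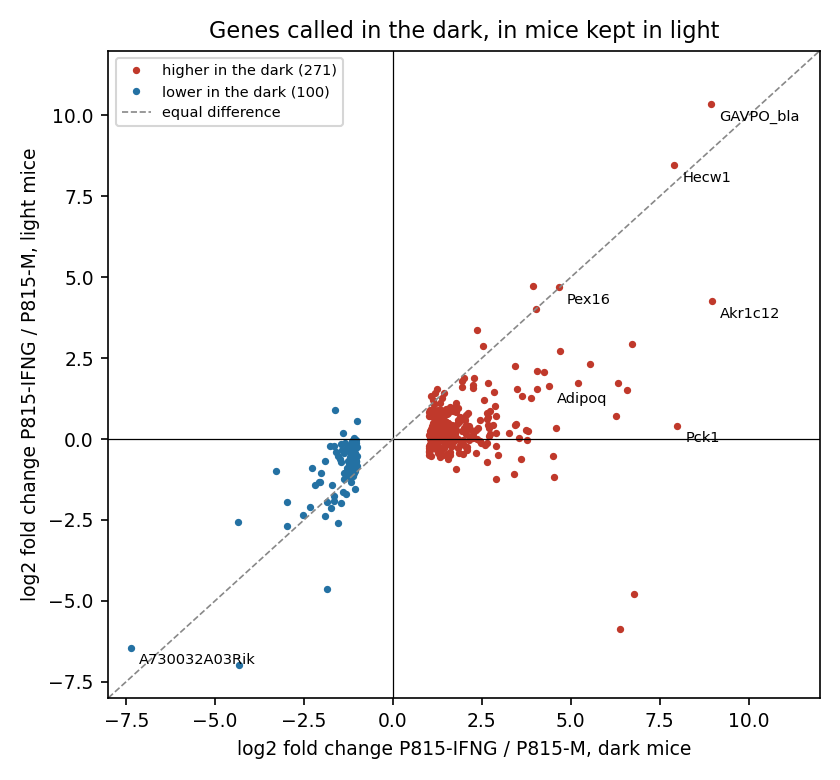
Log2 fold change of P815-IFNG over P815-M in dark mice (x) and in light mice (y) for the 371 genes called in the dark, without the deep libraries, with a dashed line of equal difference. GAVPO_bla, Hecw1, Pex16 and A730032A03Rik lie near the line, while Pck1 lies at 0.41 and the higher calls at a median of 0.31 on the y axis.

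Among the genes higher in both conditions, 3 were neighbours on chromosome 2. Pex16, a membrane protein that starts peroxisome assembly (chr2:92374676-92381217, plus strand), stood at 219, 228 and 325 CPM in P815-IFNG and at 10.4, 5.33 and 7.03 CPM in P815-M. The 3 P815-IFNG libraries lay far above all of P815-M, and the log2 fold change was 4.66 ± 0.22 without the deep libraries (adjusted p = 6.09e-09), 4.90 with all (adjusted p = 0.000523) and 4.70 in the light (adjusted p = 6.47e-09). Large2, a glycosyltransferase of dystroglycan whose first 194 bases overlap Pex16 head to head, stood at 172, 211 and 29.1 CPM against 14.3, 10.2 and 8.20 CPM, with a log2 fold change of 3.93 ± 0.31 (adjusted p = 4.08e-06). Mapk8ip1, a scaffold of the JNK pathway opposite 1700029I15Rik, stood at 62.4, 65.7 and 16.9 CPM against 1.54, 2.67 and 5.86 CPM, with a log2 fold change of 4.02 ± 0.40 (adjusted p = 5.78e-05). No library overlapped between the lines for any of the 3 genes, and with all libraries Large2 and Mapk8ip1 did not pass (adjusted p = 0.604 each). The row 1700029I15Rik, on the other strand of Mapk8ip1, had a log2 fold change of 1.14 ± 0.36 (adjusted p = 0.0929). Cry2, whose start lies 59.4 kb away, had a log2 fold change of 0.48 ± 0.30 (adjusted p = 0.425), and Slc35c1 at 85.9 kb had -0.01 ± 0.21 (adjusted p = 0.99). Of the 16 peroxisome biogenesis genes Pex16 was the 1 that passed, where 1.6% of all tested genes were called higher. The median of the list was 0.11 without the deep libraries and 0.30 with them, beside 0.05 and 0.33 over all genes. Pex6, an ATPase of peroxisomal protein import, had a log2 fold change of 0.10 (adjusted p = 0.862).

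A pair of genes of 1 family on chromosome 13 rose as well, the aldo-keto reductases Akr1c12 and Akr1c13, enzymes that reduce ketones and aldehydes, steroids among them. Akr1c12 (chr13:4268176-4279433, minus strand) stood at 28.2, 27.9 and 108 CPM in P815-IFNG, from 83, 79 and 4574 counts, and at 0 counts in all 3 P815-M libraries. Over the shallow libraries it was at least 69.2-fold higher, taking 3 counts over the P815-M group as the floor, and it passed without the deep libraries (adjusted p = 8.2e-06) and in the light (log2 4.26, adjusted p = 0.000294). With all libraries its adjusted p was 0.134. Akr1c13 (chr13:4191150-4205596, plus strand) stood at 130, 112 and 423 CPM against 26.6, 16.9 and 17.6 CPM, with a log2 fold change of 2.36 ± 0.28 (adjusted p = 0.000368) and 3.36 in the light (adjusted p = 4.63e-05), and did not pass with all libraries (adjusted p = 0.604). No P815-IFNG library overlapped P815-M for either gene. Paralogs such as these can share reads, which makes their levels uncertain. Of the 6 Akr1c genes tested the other 4 did not pass, with Akr1c19 at 2.42 (adjusted p = 0.096). The windows of 250 bases before the starts of the pair that rose are shown, from RefSeq on GRCm38.p6, with capitals at the 11 positions where they differ. They share 235 of 246 aligned bases (95.5%) with 1 base of gap.
Akr1c12, chr13:4279400-4279649, minus strand: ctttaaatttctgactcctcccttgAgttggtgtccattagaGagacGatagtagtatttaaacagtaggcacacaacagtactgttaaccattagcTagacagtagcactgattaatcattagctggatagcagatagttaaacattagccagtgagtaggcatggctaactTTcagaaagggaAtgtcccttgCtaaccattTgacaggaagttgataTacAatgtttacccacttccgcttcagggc
Akr1c13, chr13:4190937-4191186, plus strand: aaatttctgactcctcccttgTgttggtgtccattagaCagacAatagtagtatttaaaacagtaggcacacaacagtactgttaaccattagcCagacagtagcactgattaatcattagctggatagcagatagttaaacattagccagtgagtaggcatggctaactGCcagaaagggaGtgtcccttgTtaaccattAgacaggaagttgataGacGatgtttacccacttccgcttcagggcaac

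Further genes that passed in both conditions were not of these families. Hecw1, a ubiquitin ligase opposite Gm30893, stood at 52.6, 48.4 and 5.17 CPM in P815-IFNG against 0.386, 0 and 0 CPM in P815-M, a pooled ratio of 374 with a counting interval of 66.6 to 14827 (adjusted p = 3.89e-07). Gcsam, a B cell adaptor of the germinal center, stood at 35.0, 26.8 and 37.9 CPM against 5.78, 4 and 3.91 CPM (log2 2.53 ± 0.30, adjusted p = 0.000368). Atp8b4, a lipid flippase, stood at 54.6, 41.0 and 63.0 CPM against 8.10, 3.11 and 7.81 CPM (log2 2.68 ± 0.30, adjusted p = 0.000255). These 3 genes did not overlap between the lines with the deep library included. With all libraries none of the 3 passed (adjusted p = 0.472 for Hecw1, 0.0537 for Gcsam and 0.0665 for Atp8b4). Nrgn, a calmodulin-binding protein, Ramp1, a subunit of the calcitonin gene-related peptide receptor, the clock gene Per1, the glucocorticoid-induced Tsc22d3, the protease Adamts13 and 1700047F07Rik were also higher in both conditions, at log2 1.06 to 3.44 in the dark.

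On the lower side, A730032A03Rik (chr2:164177584-164196564) showed the largest difference. It stood at 2.71, 4.24 and 1.09 CPM in P815-IFNG and at 535, 679 and 281 CPM in P815-M (log2 -7.38 ± 0.54, adjusted p = 1.91e-06 and, with all libraries, 0.103), and Wfdc12, on the other strand within it, stood at 0.339, 0.706 and 2.69 against 18.1, 7.11 and 4.69 CPM. Haspin, a histone H3 kinase that lies inside Itgae, stood at 18.7, 24.7 and 28.3 against 73.6, 52.9 and 37.1 CPM (log2 -1.53 ± 0.34, adjusted p = 0.0274). Itgae, the alpha E integrin of resident T cells, stood at 8.82, 12.0 and 2.76 against 44.3, 16.4 and 25.0 CPM (log2 -1.65 ± 0.38, adjusted p = 0.0326) and did not pass in the light (-1.93, adjusted p = 0.0701). For none of these did the lines overlap. Cldn7, a tight junction protein, Il17d, a cytokine, and Shox2, a homeobox gene opposite Rsrc1, were lower in both conditions, at log2 -1.65, -1.06 and -1.86 in the dark, as were the loci Gm44851, Gm4793, Gm13032, Gm16731 and A330041J22Rik, each opposite another gene. Of the 26 genes, 17 kept their call when any 1 of the 5 shallow dark libraries was left out, among them the genes on chromosome 2 near Pex16, both Akr1c genes, Hecw1, Gcsam, Atp8b4 and A730032A03Rik. For the other 9, each lost its call without at least 1 library, with an adjusted p of up to 0.205.

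The largest rises were taken from the fit without the deep libraries. The rule of the 15 largest, at 5 CPM or more and with no gene opposite, took GAVPO_bla and Akr1c12 and 13 genes more. Scd1, the stearoyl-CoA desaturase, stood at 173 and 389 CPM in P815-IFNG replicates 1 and 2, at 11.4 CPM in the deep replicate 3 and at 18.9, 17.3 and 8.20 CPM in P815-M (log2 4.05 ± 0.36, adjusted p = 1.48e-05). Pck1, the gluconeogenic phosphoenolpyruvate carboxykinase, stood at 11.9, 16.2 and 0.331 CPM and at 0 in all of P815-M, at least 34.6-fold higher over the shallow libraries (adjusted p = 0.00483). Car3, a carbonic anhydrase of fat and muscle, stood at 103, 134 and 11.3 CPM against 5.40, 16.9 and 0 CPM (log2 3.80 ± 0.73, adjusted p = 0.0141). For Scd1 and Car3 the deep library lay within the range of P815-M, and for Pck1 it lay just above it. Cdo1, the cysteine dioxygenase, Cyp2e1, a cytochrome P450, and Galnt15, a glycosyltransferase, had 7.41 to 16.2 CPM in replicates 1 and 2 and at most 1.78 CPM in P815-M. None of these genes passed with all libraries (adjusted p = 0.604 each), and in the light the log2 fold change of Scd1 was 1.54 (adjusted p = 0.139), of Pck1 0.41 and of Car3 0.24.

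The adipocyte markers were higher in the same libraries. Of 8 markers 6 passed, all higher, where 1.6% of all tested genes were called higher. The list's median was 3.70 without the deep libraries and 3.27 with them, beside 0.05 and 0.33 over all genes. Adipoq, the adipocyte hormone adiponectin, stood at 11.5, 9.89 and 1.23 CPM in P815-IFNG and 1.16, 0 and 0 CPM in P815-M, a pooled ratio of 26.5 with a counting interval of 8.65 to 132. Cidec and Plin4, lipid droplet proteins, stood at 37.0, 49.4 and 1.28 against 0.386, 4 and 0 CPM (log2 4.71 ± 0.70, adjusted p = 0.00264) and at 23.1, 35.7 and 1.56 against 1.16, 2.22 and 1.17 CPM (log2 4.05 ± 0.49, adjusted p = 0.000368). Fabp4, a fatty acid carrier, and Cfd, the adipocyte protease adipsin, also rose, at log2 3.62 ± 0.61 and 3.50 ± 0.73, as did Plin1. Plin4 lies opposite Hdgfl2. Lpl and Lep did not pass (adjusted p = 0.106 and 0.127). The summed level of the list was 285, 339 and 42.8 CPM in P815-IFNG and 34.7, 35.5 and 47.3 CPM in P815-M, so the deep library lay within the P815-M range. No marker of the list was at 0 in all 6 libraries. The part of these markers in the results for Scd1, Pck1, Car3, Cdo1, Cyp2e1 and Galnt15 was not tested.

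The remaining 4 of the 15 largest rises were of other kinds. Myh4, a fast muscle myosin, stood at 21.7, 14.1 and 23.3 CPM against 0, 0.444 and 0 CPM, a pooled ratio of 133 with a counting interval of 23.4 to 5313, and the groups did not overlap. In the light its log2 fold change was -5.86 (adjusted p = 0.251). The 15 muscle markers otherwise did not pass, and their summed level was 907, 193 and 276 CPM in P815-IFNG against 130, 756 and 108 CPM in P815-M. Rhag, the Rh-associated glycoprotein of red cells, stood at 8.14, 2.47 and 29.5 CPM and at 0 in P815-M, at least 13.2-fold higher over the shallow libraries (adjusted p = 0.0303). Casp12, an inflammatory caspase, stood at 5.77, 4.24 and 3.76 against 0.386, 0 and 0 CPM, and Zbtb16, a zinc finger factor, at 4.75, 14.8 and 0.472 against 0, 0.444 and 0 CPM. Of the 15, 7 kept their call when any 1 library was left out, namely GAVPO_bla, Akr1c12, Pck1, Myh4, Cidec, Scd1 and Fabp4. Cyp2e1 lost it in each of the 5 fits, and Adipoq, Casp12, Cdo1 and Rhag in 4 of them, with adjusted p values of up to 0.192 over the 15.

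The 15 largest falls by the same rule were smaller in size than the rises. Hcn2, a pacemaker channel, stood at 1.02, 0.706 and 2.03 CPM in P815-IFNG against 5.78, 8.88 and 8.20 CPM in P815-M (log2 -3.28 ± 0.68, adjusted p = 0.0206). Cacng7, a calcium channel subunit, stood at 9.84, 5.30 and 14.7 against 30.1, 20.9 and 40.2 CPM (log2 -2.20 ± 0.32, adjusted p = 0.00259), and Raph1, an actin regulator, at 11.2, 11.3 and 20.1 against 33.5, 32.4 and 58.2 CPM (log2 -2.08 ± 0.34, adjusted p = 0.00495). Its neighbour Abi2, another actin regulator, fell by 1.18. For Hcn2, Cacng7 and Raph1 the deep library lay below all of P815-M as well. Slc46a1, a folate transporter, L1cam, an adhesion molecule, Zfp592, Sec22c, Tarm1 and the adenosine receptor gene Adora2a fell by 2.03, 1.74, 1.55, 1.09, 1.12 and 1.30. Vmn2r97, a pheromone receptor gene, and Trgv2, a T cell receptor segment, fell by 2.52 and 2.26. Fdps, the farnesyl diphosphate synthase, fell by 1.66 without the deep libraries, yet its deep library held 57.6 CPM against 10.5 to 28.5 CPM in P815-M, and the log2 fold change was 0.07 with all libraries. Of the 15, only Cacng7 and Raph1 kept their call whichever library was left out, and the adjusted p rose to at most 0.273.

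The interferon gamma list gave 2 calls. Beside genes that interferon gamma turns on, this list of 45 genes holds Ifngr1, Ifngr2, Jak1 and Jak2, through which it acts. Of the 45 genes, 15 did not overlap between the lines without the deep libraries, against 6604 of the 16944 tested genes. The fitted log2 fold change of 40 lay above 0 without the deep libraries, against 54.0% of all tested genes, 18 had an unadjusted p below 0.05 and 2 passed, both higher (4.44% against 1.6% of all genes). The median was 0.71 without the deep libraries and 0.48 with all, beside 0.05 and 0.33 over all genes, and none passed with all libraries. Ifngr1, the ligand-binding receptor chain, stood at 59.4, 45.9 and 104 CPM against 23.1, 12.9 and 20.3 CPM, with no overlap (log2 1.28 ± 0.26, adjusted p = 0.018). Parp14, an ADP-ribosyl transferase, stood at 47.2, 47.0 and 7.18 against 21.2, 8.44 and 17.6 CPM (log2 1.37 ± 0.34, adjusted p = 0.0423). The deep library was below all 3 P815-M libraries for Parp14 and the highest of all for Ifngr1. Without P815-IFNG replicate 1, P815-M replicate 2 or P815-M replicate 3, neither gene passed (adjusted p = 0.124, 0.0628 and 0.0524 for Ifngr1 and 0.132, 0.134 and 0.0917 for Parp14), and Parp14 also lost its call without P815-IFNG replicate 2 (adjusted p = 0.148).

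Irf1, a transcription factor that interferon gamma induces directly, stood at 99.8, 44.1 and 25.5 CPM in P815-IFNG and at 42.0, 17.3 and 58.2 CPM in P815-M. The lines overlapped (log2 0.67 ± 0.41, adjusted p = 0.405), and Irf1 lies opposite Gm17334. Irf8, Gbp2 and Gbp5 stood at 89.2, 83.5 and 49.2 CPM in P815-IFNG replicate 1 and at 39.5, 24.7 and 16.6 CPM in replicate 2, with log2 fold changes of 1.38, 1.21 and 1.32 (adjusted p = 0.0969, 0.219 and 0.138). Psmb9, Tapbp and Tap2, the most abundant of the list, had log2 fold changes of -0.27, 0.22 and 0.21 (adjusted p = 0.503, 0.697 and 0.728). The summed level of the list was 3247, 1967 and 1271 CPM against 1832, 1227 and 2044 CPM, so that P815-IFNG replicate 1 was the highest and the deep library lay within the range of P815-M. The 250 bases before the start of Irf1 (RefSeq, GRCm38.p6) hold the letters TTCNNNGAA, the gamma-activated site, which read alike on both strands and are in capitals. The letters were found in a window of 250 bases before to 50 after the start for 9.55% of 27025 genes. Such windows were at hand for 29 of the 45 genes of the list, and 12 of these 29 (41.4%) held the letters. Of the 191 higher calls with a window, 22 (11.5%) held them. The rest of the list is not covered, and these shares were not tested.
Irf1, chr11:53769764-53770013, plus strand: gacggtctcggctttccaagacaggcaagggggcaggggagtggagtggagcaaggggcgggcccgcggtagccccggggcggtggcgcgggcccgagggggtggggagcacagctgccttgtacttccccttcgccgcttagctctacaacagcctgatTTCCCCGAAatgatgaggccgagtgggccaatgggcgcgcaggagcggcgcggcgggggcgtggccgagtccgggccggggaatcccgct

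Chemokines and type I interferon genes gave no calls, and antigen presentation gave 2. None of the 10 interferon-induced chemokine and receptor genes passed (3 at an unadjusted p below 0.05), with a median of 1.03 (0.77 with all libraries). Ccl8, a monocyte chemokine, stood at 48.9, 92.9 and 55.2 against 35.9, 19.1 and 4.30 CPM without overlap (adjusted p = 0.148), and Cxcl16 and Cxcl9 had log2 fold changes of 1.30 and 0.58 (adjusted p = 0.207 and 0.686). None of the 24 type I interferon genes passed (6 at an unadjusted p below 0.05), with a median of 0.53 without the deep libraries and 0.17 with all, beside 0.05 and 0.33 over all genes. The most abundant, Bst2, Irf7 and Irf9, had 0.02, -0.52 and 0.19. Of 20 genes of antigen presentation 2 passed, both of class II and higher, where 1.6% of all tested genes were called higher. The fitted log2 fold change of 18 lay above 0, and 8 had an unadjusted p below 0.05. The median of the list was 0.48 (0.33 with all libraries), beside 0.05 and 0.33 over all genes. H2-Aa, a class II chain, stood at 419, 130 and 45.8 against 82.9, 12.9 and 76.6 CPM (log2 2.05 ± 0.50, adjusted p = 0.0394), and the invariant chain Cd74 at 1204, 412 and 86.7 against 302, 70.2 and 245 CPM (log2 1.78 ± 0.45, adjusted p = 0.0453). Without P815-IFNG replicate 1 their adjusted p values were 0.425 and 0.463, and both also lost their call without P815-M replicate 2 or 3 (0.0808 and 0.0722 for H2-Aa, 0.109 and 0.09 for Cd74). The class I genes H2-D1, H2-K1 and B2m had 0.44, 0.33 and 0.51 (adjusted p = 0.401, 0.51 and 0.328). Of 15 checkpoint genes 1 passed, where 1.6% of all tested genes were called higher. Vsir, the V-domain suppressor of T cells, rose by 1.37 ± 0.23 (adjusted p = 0.00682), at 81.1, 80.9 and 13.0 against 33.9, 17.3 and 30.1 CPM, and it lies opposite Cdh23. Pdcd1, Tgfb1 and Arg1 had 1.26, -0.07 and 0.85 (adjusted p = 0.115, 0.889 and 0.486).

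**Figure D4:**
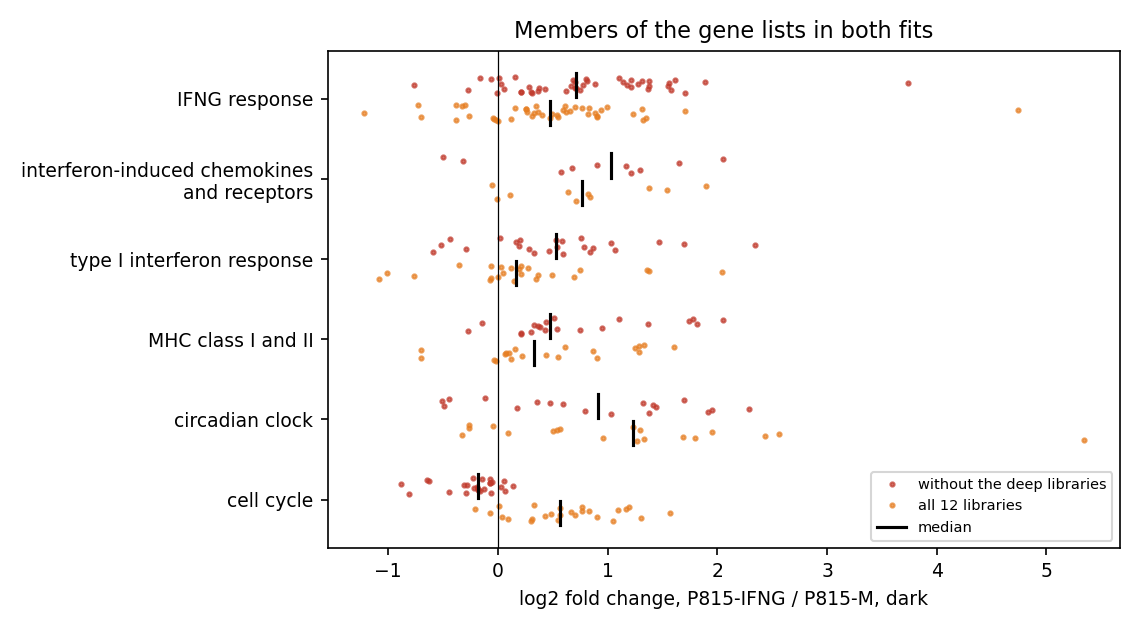
Log2 fold change of P815-IFNG over P815-M in the dark for the members of 6 gene lists, without the deep libraries (red) and with all 12 (orange), 1 point per gene and a bar at the median. The interferon gamma response has its median at 0.71 and 0.48, and the cell cycle list moves from -0.18 to 0.57 when the deep libraries are added.

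Some markers of macrophages and fibroblasts were called, where 1.6% of all tested genes were called higher. Of 15 macrophage and monocyte markers 4 passed, all higher, with a median of 1.01 and a summed level of 2261, 2036 and 805 CPM against 1130, 685 and 1078 CPM. The complement genes C1qa, C1qb and C1qc stood at 351, 210 and 180 CPM in replicate 1 and at 296, 178 and 136 CPM in replicate 2, with log2 fold changes of 1.59 ± 0.25, 1.60 ± 0.28 and 1.28 ± 0.22 (adjusted p = 0.00473, 0.00862 and 0.00862). In P815-M they stood at 48.9 to 129, 24.9 to 72.7 and 36.0 to 78.7 CPM, and the deep library held 59.5, 72.9 and 50.4 CPM. Mertk, a receptor for dying cells opposite Gm14011, rose by 2.7 ± 0.51 (adjusted p = 0.0136), and without P815-IFNG replicate 1 it and C1qc lost their calls (adjusted p = 0.0854 and 0.0697). The abundant members Lyz2 and Csf1r had 1.22 and 0.23 (adjusted p = 0.152 and 0.536). Of 12 fibroblast markers 2 passed, the proteoglycan genes Dcn and Lum, at log2 1.30 ± 0.20 and 1.67 ± 0.41 (adjusted p = 0.00291 and 0.0392), and in both the deep library lay above P815-M too. Lum lost its call without any 1 of the 5 shallow libraries (adjusted p up to 0.146). Col3a1, Col1a1 and Fn1 had 0.90, 0.74 and 0.79 (adjusted p = 0.0873, 0.116 and 0.258), and the summed level of the list was 8703, 18578 and 6877 CPM against 7525, 5908 and 6933 CPM. None of 10 endothelial markers passed (4 at an unadjusted p below 0.05), with a median of 1.16 and a sum of 270, 275 and 121 against 158, 179 and 87.1 CPM. The part of these cell types in the calls for the immune lists was not tested.

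Lymphocyte markers gave 1 call, where 1.6% of all tested genes were called higher. None of 17 T cell markers passed (5 at an unadjusted p below 0.05). Their median was 1.04 without the deep libraries and 0.62 with all, beside 0.05 and 0.33 over all genes. The fitted log2 fold change of 12 of the 17 lay above 0 without the deep libraries, against 54.0% of all tested genes. Cd3e stood at 6.79, 2.47 and 0.118 against 1.54, 0 and 0.391 CPM. Cd247, opposite Pou2f1, was the most abundant of the list at 162, 169 and 16.6 against 165, 180 and 180 CPM, and made most of the list's sum of 244, 208 and 61.7 against 227, 210 and 216 CPM. None of 10 cytotoxic and natural killer markers passed (2 at an unadjusted p below 0.05), with a median of 0.70. Of 8 B cell markers Ighm, the IgM heavy chain, rose by 2.05 ± 0.48 (adjusted p = 0.0335), at 12.6, 24.7 and 5.86 against 5.78, 3.55 and 2.34 CPM. It lost the call without P815-IFNG replicate 2 or P815-M replicate 2 or 3 (adjusted p = 0.28, 0.0879 and 0.106). None of 4 neutrophil, 9 dendritic cell, 3 red cell and 1 keratinocyte marker tested passed, with 2, 1, 2 and 0 at an unadjusted p below 0.05 and medians of 0.46, 0.32, 2.08 and 0.14.

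**Figure D5:**
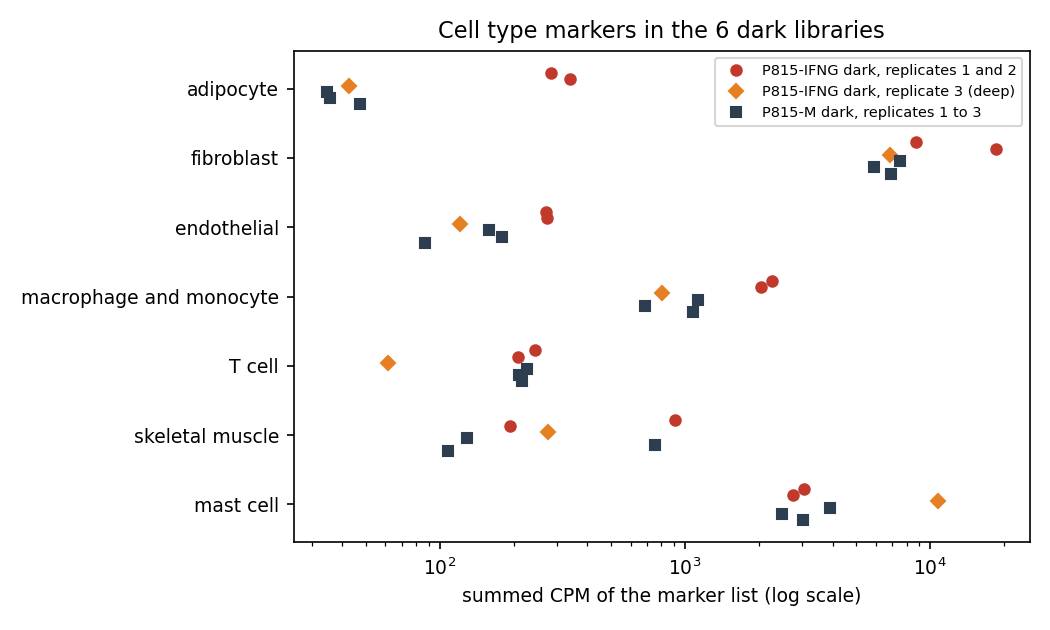
Summed CPM (log axis) of 7 marker lists in each dark library, 1 point per library. P815-IFNG replicates 1 and 2 lie above all P815-M libraries for the adipocyte, fibroblast, endothelial and macrophage lists, while the deep library lies within the P815-M range for these 4 and above all others for the mast cell list.

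The mast cell and cell cycle lists gave no calls. None of 17 mast cell markers passed (2 at an unadjusted p below 0.05), with a median of 0.05, and Cpa3, a mast cell carboxypeptidase, stood at 877, 732 and 5786 against 1087, 709 and 900 CPM. The deep library raised the median of this list to 0.72, and that of the 25 cell cycle genes from -0.18 to 0.57. None of the cell cycle genes passed (2 at an unadjusted p below 0.05), with Mki67, Top2a and Mcm3 at 0.07, -0.06 and -0.19. Of 22 hypoxia and glycolysis genes 1 passed, where 0.59% of all tested genes were called lower. Car9, a hypoxia-induced carbonic anhydrase opposite Gm12454, fell by 1.71 ± 0.39 (adjusted p = 0.0316), at 4.41, 5.30 and 2.48 against 15.4, 13.3 and 12.9 CPM, and it lost the call without any 1 of the 5 libraries. Pkm, Ldha and Gapdh had -0.27, -0.34 and -0.34 (adjusted p = 0.478, 0.375 and 0.363). None of 19 heat shock and immediate early genes and 14 oxidative stress genes passed (2 and 0 at an unadjusted p below 0.05), with medians of -0.01 and 0.18. Of 10 imprinted genes 2 passed, both higher, where 1.6% of all tested genes were called higher. They were Cdkn1c, a growth inhibitor, at log2 3.45 ± 0.78 and Meg3, a noncoding RNA, at 1.12 ± 0.29 (adjusted p = 0.0295 and 0.0475). Both lie opposite another gene and kept their call without P815-IFNG replicate 1 alone (adjusted p up to 0.21 and 0.56 in the other 4 fits). None of 5 sex chromosome genes passed (2 at an unadjusted p below 0.05). Their median was 0.80 without the deep libraries, 1.13 with all and -0.84 in the light, beside 0.05 and 0.33 in the dark over all genes. Without the deep libraries 4 of the 5 did not overlap between the lines, against 6604 of the 16944 tested genes. The sex of each mouse is not in the labels, and its part in these values was not tested.

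Of 18 circadian clock genes tested 3 passed, all higher, where 1.6% of all tested genes were called higher. The median of the list was 0.91 without the deep libraries and 1.24 with all, beside 0.05 and 0.33 over all genes. Per1, a light-induced repressor of the clock, stood at 184, 179 and 88.8 CPM in P815-IFNG and at 49.7, 32.9 and 39.8 CPM in P815-M, and no library overlapped (log2 1.95 ± 0.20, adjusted p = 6.73e-05, and 1.79 in the light, adjusted p = 0.000294). With all libraries it did not pass (adjusted p = 0.562). Nr1d2, a repressor of the second loop of the clock, stood at 15.9, 20.1 and 21.9 against 5.01, 1.33 and 3.13 CPM (log2 2.28 ± 0.43, adjusted p = 0.0136). Tef, a factor of the clock output, stood at 44.5, 45.5 and 66.5 against 22.4, 17.8 and 16.8 CPM (log2 1.04 ± 0.24, adjusted p = 0.0303). In all 3 the deep library lay above P815-M. Nr1d2 lost its call without P815-IFNG replicate 2 (adjusted p = 0.0855) and Tef, opposite Gm17597, in each of the 5 fits but that without P815-M replicate 1 (adjusted p up to 0.149). Nr1d1 and Bhlhe40, more abundant members, had 0.17 and -0.44 (adjusted p = 0.731 and 0.347). The time of day at which each tumor was taken is not in the labels.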

How the data were processed

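RNA-seq counts of the 6 tumors kept in the dark were compared, and the 6 light tumors entered the same fits. The deposited values are raw counts per gene symbol, made by the authors with fastp, STAR 2.7.9a and HTSeq 0.13.5 at default settings against mm10 plus the inserted sequences, from libraries of a stranded kit. These counts precede the ComBat-seq step of the study and still hold its mitochondrial genes. The study's own tests used DESeq2 1.32.0. The members and gene lists were chosen with earlier results of these data known.

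Genes with a total under 10 and the 13 mitochondrial rows were removed. Counts were fitted with edgeR 4.0.16 (R 4.3.3, TMM, 1 mean per group, quasi-likelihood test, Benjamini-Hochberg adjustment over all tested genes), once with all 12 libraries and once without the 2 libraries over 10000000 counts. A call needed an adjusted p no higher than 0.05 together with a log2 fold change of 1 or more in size. All tests are two-sided, and n is 3 mice per group, or 2 P815-IFNG mice without the deep library. Genes were named where they are knock-in rows, Ifng or Cxcl10, where they are among the 15 largest rises or falls that do not overlap between lines, reach 5 CPM and have no annotated gene opposite (unnamed loci left out), where they were called with all libraries, and in each list for the 3 most abundant and up to 4 called members per direction. The values of 1 such list member are not reported here. The genes called in both dark and light, the neighbours of Pex16, the Akr1c family, Apoe, Rb1, and further list members such as Irf1, Irf8, Gbp2, Gbp5, Cd3e, Plin1 and Lep were named after their values were seen.

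CPM are counts scaled to a library total of 1000000. Ratios of pooled counts have exact 95% intervals, and intervals and the floor of 3 counts cover counting error only. Coordinates are those of GRCm38 (GENCODE M21), matched by symbol for 31490 of 32248 symbols; the authors' annotation release is not given in the sources used here. By default HTSeq counts reads on the strand of the gene, whereas reads of this kit come from the other strand. A row can therefore hold reads of a gene opposite it, which is named where 1 is annotated; the strand of each library was not tested beyond the share of mt-Nd6. Alternatives were DESeq2 1.42.0, DESeq2 size factors, no filter, filterByExpr, only the dark libraries, mitochondrial genes kept, the replicate number as a block, no fold minimum, genes opposite another gene left out, each library left out, library kind as a batch term and ComBat-seq (sva 3.50.0). The code was tested on simulated data. Python 3.11.15, pandas 2.3.3, numpy 2.4.6, scipy 1.17.1 and matplotlib 3.10.9 were used.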

Additional observations from a re-analysis of the deposited data

Results flagged for a closer look

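In 2 genes the difference between the lines was not the same in dark and in light, by the test of that difference in the fit without the deep libraries. Apoe, a lipid carrier of macrophages and other cells, stood at 1894, 1383 and 168 CPM in P815-IFNG dark replicates 1, 2 and 3 and at 290, 243 and 139 CPM in P815-M dark. The log2 fold change was 2.65 in the dark and -0.71 in the light, a difference of 3.36 (adjusted p = 0.035). Rb1, the retinoblastoma tumor suppressor, stood at 89.9, 52.3 and 7.01 CPM against 27.4, 11.5 and 15.2 CPM, and its log2 fold change was 1.76 in the dark and -0.93 in the light, a difference of 2.69 (adjusted p = 0.0398). Rb1 shares its place with Lpar6 and Rcbtb2 on the other strand. In both genes replicates 1 and 2 lay above P815-M in the dark, while the deep library lay within the P815-M range for Apoe and below it for Rb1.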

How the results depend on the processing

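With all 12 libraries, 2 genes were called. This count was 38 (26 higher, 12 lower) with DESeq2, 4 with DESeq2 size factors, 4 with filterByExpr, 0 with only the dark libraries, 7 without genes opposite another gene, 290 (210 higher, 80 lower) with library kind as a batch term and 491 (326 higher, 165 lower) with ComBat-seq, and 1 to 2 when each library was left out. The replicate block gave 7 genes with all libraries and 445 in place of 371 without the deep ones. The deviations of same-numbered shallow libraries correlated at -0.009 and -0.011. With 2 shallow P815-IFNG libraries these deviations mirror each other, and the deep replicate was not part of the check, so it cannot decide on a pairing. The labels give no pairing beyond the replicate number. Without the deep libraries the 371 calls became 867 (685 higher, 182 lower) with no filter, 152 (114 higher, 38 lower) with only the dark libraries, 144 (111 higher, 33 lower) without genes opposite another gene and 145 to 415 when each library was left out. Median log2 fold changes turned sign without the deep libraries for the cell cycle (0.57 to -0.18), heat shock (0.0386 to -0.0119) and keratinocyte lists (-0.47 to 0.14), as did mRuby3_luciferase (0.7832 to -0.0208), and moved for the clock (1.24 to 0.91), imprinted (0.58 to 0.93), sex chromosome (1.13 to 0.80) mast cell (0.7159 to 0.0545) and neutrophil lists (0.7433 to 0.4574). The cause was not tested. Of 74 named genes called without the deep libraries, none turned sign and 30 kept their call under the alternatives run on that fit (library kind as a batch term and ComBat-seq were not among them, and leaving out genes opposite another gene removed some of the 74). With all libraries Fdps turned sign, from -1.66 to 0.07.

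Totals of 2251196 to 2946792 counts limit the 5 shallow libraries to about 1 CPM. Their rows can also hold reads of a gene on the opposite strand, which was not tested beyond the share of mt-Nd6. P815-M has no deep library, so in the fit with all libraries the kind and the line cannot be fully told apart.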
